A study of Homo sapiens with 30 samples.

Results

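The genes described here are ATF4 and 9 genes of the integrated stress response that it is known to activate, 10 of the 20367 gene symbols in the PRO-seq table. They were taken by gene name. G401, a malignant rhabdoid tumour cell line that lacks a functional SMARCB1 gene, carried a doxycycline-inducible lentiviral construct for HA-tagged EGFP (the control), OMOMYC (OmoMYC, a dominant-negative form of MYC) or SNF5 (the product of SMARCB1). All groups were G418-selected cell populations that received 1 μg/ml doxycycline for 24 h, so the controls share the virus, the selection and the inducer. The 30 samples of the series comprise 9 of PRO-seq and 9 of ATAC-seq, with 3 per construct, 6 of MYC ChIP-seq, with 2 per construct, and 6 IgG samples that were not used here. All results are from a single tumour line and a single time after induction.

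The integrated stress response begins when stress-sensing kinases phosphorylate the translation initiation factor eIF2, which lowers overall protein synthesis but favours translation of ATF4, a bZIP transcription factor. ATF4 then activates genes for amino acid synthesis, amino acid uptake and redox balance, and, when stress persists, genes that dampen growth or favour death. PRO-seq maps engaged RNA polymerase along genes, so it reads transcription of these genes and says nothing of the translational step that controls ATF4 protein.

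Gene body totals lay between 28388012 and 46859674 reads per PRO-seq sample, and promoter-proximal totals between 517824 and 3381190. Promoter-proximal totals were 1.49 to 2.01% of gene body totals in the samples numbered 1, 9.45 to 11.5% in those numbered 2, and 4.40 to 5.41% in those numbered 3, whichever the construct. The induced gene could be seen in the counts. SMARCB1 had 1 to 6 gene body reads in the EGFP samples, 2 to 5 in the OMOMYC samples, and 2870, 4467 and 3440 in the SNF5 samples. The study's figure legends describe the PRO-seq replicates as independent experiments. The p-values of the main tests rest on the spread left between these samples of a single line after differences between replicate numbers are removed.

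The RefSeq promoters of 4 members are shown because they hold a motif that bears on ATF4 or on MYC. ATF4 and its C/EBP partners bind the C/EBP-ATF response element, searched here as TGATGNAA, and MYC binds the E-box CACGTG. Both were searched on both strands in the 250 bases before each RefSeq start (GRCh38.p14), and matches are in capitals below. The 2 motifs can share bases only at their ends, and no promoter shown here holds both. Promoters were found for 9 of the 10 members, all but SLC7A11. The response element was present in 2 of the 9, ASNS and CHAC1, and the E-box in 2 of the 9, ATF4 and SLC7A5. Of 27305 gene symbols with a promoter, 3.89% had the response element and 7.73% the E-box in this window. These are matches of letters, not measured sites.
ASNS, chr7:97872409-97872658, minus strand, match 68 bases before the start: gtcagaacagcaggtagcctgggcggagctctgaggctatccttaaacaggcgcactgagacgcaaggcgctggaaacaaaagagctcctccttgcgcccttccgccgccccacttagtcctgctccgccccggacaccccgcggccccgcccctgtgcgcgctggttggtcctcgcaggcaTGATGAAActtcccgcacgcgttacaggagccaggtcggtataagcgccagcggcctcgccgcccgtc
CHAC1, chr15:40953221-40953470, plus strand, reverse match 209 bases before the start: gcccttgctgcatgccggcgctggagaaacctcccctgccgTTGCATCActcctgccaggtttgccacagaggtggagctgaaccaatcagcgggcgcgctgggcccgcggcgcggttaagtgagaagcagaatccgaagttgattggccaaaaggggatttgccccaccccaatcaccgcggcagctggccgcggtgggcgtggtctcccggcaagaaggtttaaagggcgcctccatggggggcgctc
ATF4, chr22:39520309-39520558, plus strand, E-box 82 bases before the start: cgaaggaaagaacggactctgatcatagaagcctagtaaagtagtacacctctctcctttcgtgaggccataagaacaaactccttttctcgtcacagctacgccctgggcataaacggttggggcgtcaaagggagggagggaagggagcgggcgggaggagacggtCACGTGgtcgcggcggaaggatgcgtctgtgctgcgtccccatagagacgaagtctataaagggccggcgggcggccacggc
SLC7A5, chr16:87869508-87869757, minus strand, E-box 130 bases before the start: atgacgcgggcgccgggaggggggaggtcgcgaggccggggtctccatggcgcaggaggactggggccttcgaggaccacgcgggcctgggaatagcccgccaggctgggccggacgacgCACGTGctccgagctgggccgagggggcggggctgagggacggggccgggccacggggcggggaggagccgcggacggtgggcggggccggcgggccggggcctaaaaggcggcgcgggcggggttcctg

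Gene body signal was first compared between members, per kb of gene body, since the gene bodies run from 1123 bp in ATF4 to 77256 bp in SLC7A11. Values are CPM, reads scaled to a common library size by the gene body total of each sample and a factor from the median ratio of gene body counts. In EGFP cells ATF4 had the highest level, at 43.1 ± 9.29 CPM per kb (SD, n = 3). DDIT3, which encodes the pro-death factor CHOP, followed at 10.2 ± 1.24 CPM per kb. SESN2, a stress-induced inhibitor of mTORC1, was at 5.02 ± 1.08, CHAC1, a glutathione-degrading enzyme, at 4.89 ± 1.60, and PSAT1, of serine synthesis, at 4.31 ± 0.419 CPM per kb. These neighbours in the order did not differ beyond their spread. SLC7A5 and PHGDH were at 2.56 ± 0.542 and 2.52 ± 0.223, and ASNS and TRIB3 at 1.56 ± 0.400 and 1.22 ± 0.493 CPM per kb, with the cystine transporter gene SLC7A11 lowest at 0.444 ± 0.188. The order of the first 2 and of the last was the same with OMOMYC and with SNF5. The gene body was counted from 1 kb after the start to the end of the gene, so for ATF4, a short gene, it leaves out the first part of the locus. GENCODE lists pseudogenes named for ATF4, ASNS, PSAT1 and SLC7A5 (4, 5, 4 and 2), and genes on the same strand that overlap ASNS and DDIT3, so reads of these members are less certain.

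The comparison of SNF5 with EGFP asks how transcription changes when the missing tumour suppressor is restored. Gene body signal fell at 9 of the 10 members with SNF5 and rose at none (edgeR quasi-likelihood test with the replicate number as a block, Benjamini-Hochberg adjusted p under 0.05 over 15060 genes). Of all genes tested, 34.1% were called in either direction, 16.5% lower and 17.6% higher. The median log2 fold change was −0.32 over the members and −0.03 over all genes. The 2 deepest falls were at ASNS and PSAT1, with CHAC1 close to the latter.

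ATF4 itself had 38.4, 59.2 and 47.5 CPM in EGFP replicates 1 to 3, and 34.1, 46.4 and 40.0 CPM with SNF5. The SNF5 sample was lower than the EGFP sample of the same number each time, although the ranges of the groups overlapped. The log2 fold change was −0.26 ± 0.07 (SE, edgeR adjusted p = 0.0165), a fall of 16.4% on the linear scale, as 0.836 of the control level.

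Among the 3 enzymes of amino acid synthesis, ASNS, which makes asparagine, had 35.8, 33.7 and 21.4 CPM with EGFP and 20.8, 18.9 and 18.01 CPM with SNF5. Every SNF5 sample was below every EGFP sample, and the log2 fold change of −0.64 ± 0.19 (edgeR adjusted p = 0.0277) was the largest among the members. PSAT1, the aminotransferase of serine synthesis, had 151.7, 136.6 and 125.0 CPM with EGFP and 106.8, 91.9 and 100.9 CPM with SNF5. Its groups were also apart, with a log2 fold change of −0.47 ± 0.11 (edgeR adjusted p = 0.0110). PHGDH, which catalyses the first step of that pathway, had 87.2, 76.9 and 73.8 CPM with EGFP and 64.7, 53.6 and 58.3 CPM with SNF5, again without overlap. Its log2 fold change was −0.43 ± 0.08 (edgeR adjusted p = 0.00436). These were the 3 of 10 members whose SNF5 and EGFP samples did not overlap, a pattern shown by 19.1% of all genes tested.

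Of the stress effectors, CHAC1 had 9.32, 13.9 and 7.37 CPM with EGFP and 6.16, 9.76 and 6.17 CPM with SNF5. It was lower in each numbered pair, with a log2 fold change of −0.45 ± 0.12 (edgeR adjusted p = 0.0211). DDIT3 had 25.8, 31.4 and 32.6 CPM with EGFP and 19.3, 23.0 and 28.0 CPM with SNF5, and changed by −0.36 ± 0.08 (edgeR adjusted p = 0.00786). TRIB3, a pseudokinase induced by ATF4 and CHOP, changed by −0.25 ± 0.08 (edgeR adjusted p = 0.0484), and SESN2 by −0.15 ± 0.05 (edgeR adjusted p = 0.0485). These last calls are close to the threshold, and both were lost with DESeq2 (adjusted p = 0.0664 and 0.0739).

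Of the transporter genes, SLC7A5 was called and SLC7A11 was not, but their estimates were close and were not compared with each other. SLC7A5, which encodes the large neutral amino acid transporter LAT1, had 104.8, 75.4 and 115.7 CPM with EGFP and 90.9, 68.6 and 83.0 CPM with SNF5. The log2 fold change was −0.27 ± 0.08 (edgeR adjusted p = 0.0284). SLC7A11, the cystine-glutamate exchanger, had 24.1, 27.7 and 50.9 CPM with EGFP and 18.6, 21.0 and 55.1 CPM with SNF5, and was the member that was not called, at −0.22 ± 0.12 (edgeR adjusted p = 0.198). It was lower with SNF5 in pairs 1 and 2 and higher in pair 3, and both samples numbered 3 stood well above the others.

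**Figure D1:**
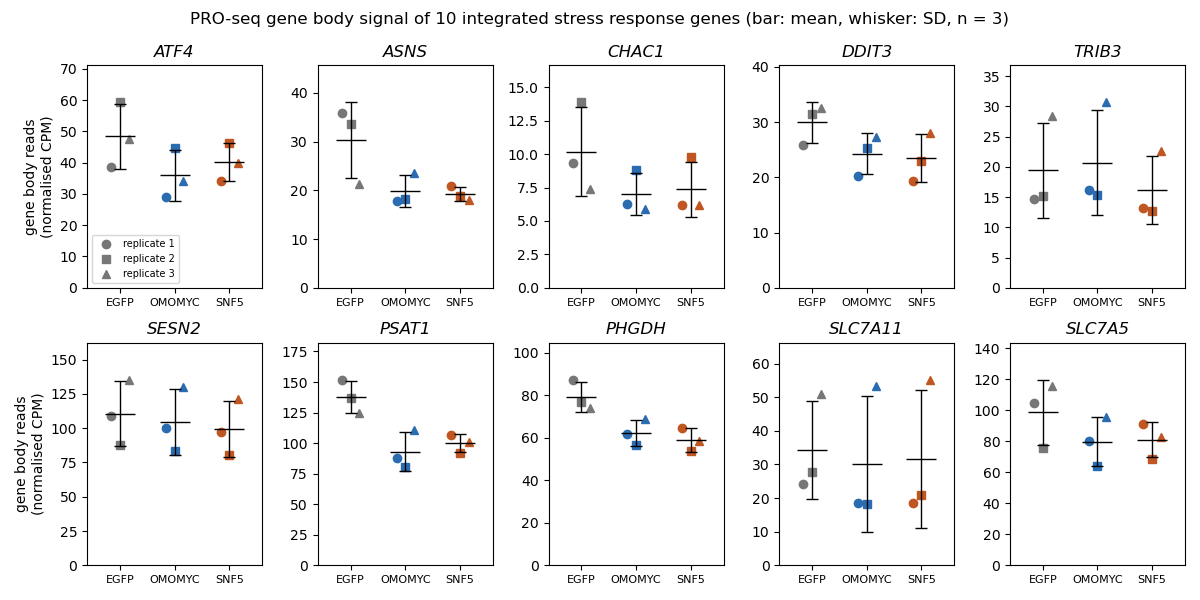
PRO-seq gene body signal of the 10 members in normalised CPM (vertical axes, each from 0) for the 3 constructs, with circles, squares and triangles for replicates 1, 2 and 3, bars for means and whiskers for SD (n = 3). ASNS, PSAT1 and PHGDH show SNF5 samples below all EGFP samples, while the shared order of symbols within most panels shows that samples of the same number deviate together.

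OMOMYC blocks MYC from its partners and targets, and its comparison with EGFP asks what loss of MYC function does in the same cells. Gene body signal fell at 5 of the 10 members, against 8.53% of all genes called in either direction, 4.42% lower and 4.10% higher. The 5 were ATF4, CHAC1, DDIT3, PSAT1 and PHGDH, and none rose. The median log2 fold change was −0.33 over the members and 0.00 over all genes. This comparison uses the same EGFP samples as the SNF5 comparison, so the values of both are given side by side and their likeness is no separate result.

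ATF4 had 28.9, 44.8 and 34.1 CPM with OMOMYC, below the EGFP sample of the same number in all 3 pairs. Its log2 fold change was −0.43 ± 0.07 (edgeR adjusted p = 0.0168), where it had been −0.26 with SNF5. PSAT1 had 87.9, 80.2 and 110.6 CPM with OMOMYC and changed by −0.57 ± 0.11 (edgeR adjusted p = 0.0258). PHGDH had 61.8, 56.6 and 68.7 CPM and changed by −0.34 ± 0.08 (edgeR adjusted p = 0.0378). These 2 were the members whose OMOMYC samples all lay below all EGFP samples, which 11.4% of all genes tested showed in either direction.

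CHAC1 had 6.25, 8.80 and 5.92 CPM with OMOMYC and changed by −0.52 ± 0.12 (edgeR adjusted p = 0.0401). DDIT3 had 20.2, 25.2 and 27.4 CPM and changed by −0.31 ± 0.08 (edgeR adjusted p = 0.0445). Both CHAC1 and DDIT3 were lower in each of the 3 pairs, while the other two stress effectors, SESN2 and TRIB3, were not called.

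The 5 members not called include ASNS, with 17.8, 18.3 and 23.6 CPM under OMOMYC. Its mean change of −0.58 ± 0.19 was as large as that of PSAT1, but its adjusted p from edgeR was 0.0850, and 0.0136 with DESeq2. The numbered pairs went apart, with log2 ratios of −1.01 and −0.88 in pairs 1 and 2 and 0.14 in pair 3, where the EGFP sample was itself low. Without the samples numbered 3, the pair that rose, its change was −0.95 ± 0.08 (edgeR adjusted p = 1.22e-08). That fit called 6793 of 15060 genes, where the main fit called 1284. With the samples numbered 1 or 2 left out instead, 0 members were called with OMOMYC, ASNS among those not called. SLC7A5 was at −0.30 ± 0.08, lower in all 3 pairs, with an edgeR adjusted p of 0.0507, and 0.0139 with DESeq2. SLC7A11 was at −0.30 ± 0.12 (edgeR adjusted p = 0.148) and SESN2 at −0.08 ± 0.05 (edgeR adjusted p = 0.318). TRIB3 was the member above 0, at 0.09 ± 0.08 (edgeR adjusted p = 0.528), with 16.2, 15.3 and 30.7 CPM against 14.6, 15.2 and 28.5 CPM with EGFP.

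**Figure D2:**
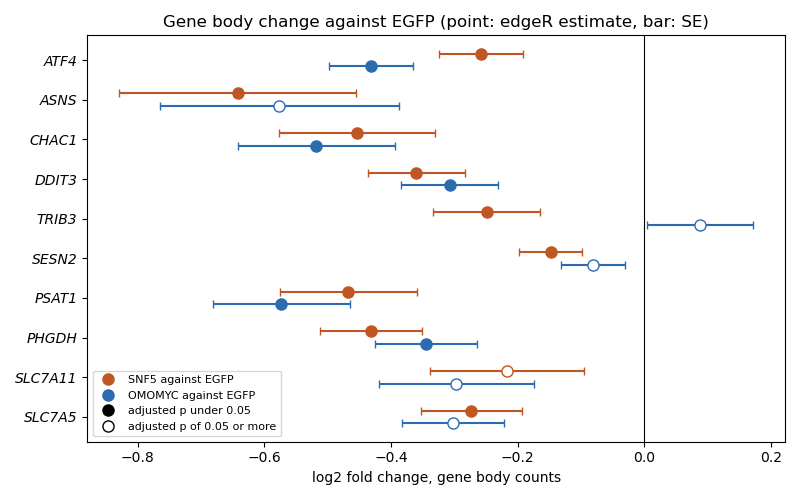
Gene body log2 fold changes against EGFP for the 10 members (horizontal axis), as edgeR estimates with SE bars, for SNF5 (orange) and OMOMYC (blue), with filled points for adjusted p under 0.05. All 10 SNF5 estimates and 9 of 10 OMOMYC estimates lie below 0, and 9 and 5 of them are filled.

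The direct comparison of SNF5 with OMOMYC tests whether the constructs differed. TRIB3 was the only member called, at −0.34 ± 0.08 on the log2 scale (edgeR adjusted p = 0.0239), where 18.9% of all genes tested were called in either direction, 7.38% lower and 11.5% higher. TRIB3 had 13.2, 12.7 and 22.7 CPM with SNF5 and 16.2, 15.3 and 30.7 CPM with OMOMYC, and was lower with SNF5 in all 3 pairs. ATF4 was higher with SNF5 than with OMOMYC in all 3 pairs, by 0.17 ± 0.07, but did not pass (edgeR adjusted p = 0.103). The other 8 members had differences between −0.09 and 0.11, with SEs from 0.05 to 0.19. ASNS had the widest of these SEs.

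The replicate number carried much of the spread of these genes, as it did over all genes tested. Without the term for it, 0 of 10 members were called by edgeR in the SNF5, OMOMYC and direct comparisons of the gene body, and 3, 3 and 0 had an unadjusted p under 0.05. Over all 15060 genes, 225, 1 and 75 were then called, and 2222, 930 and 1431 had an unadjusted p under 0.05. The direction of the members' estimates stayed the same, with 10, 9 and 5 of 10 below 0. Leaving out the samples numbered 1, 2 or 3 gave 1, 0 and 9 members called with SNF5 and 0, 0 and 8 with OMOMYC. Of the 15060 genes, the same fits called 1610, 1485 and 8430 with SNF5 and 2, 2 and 6793 with OMOMYC, so the counts moved for genes in general. In each of these fits all 10 SNF5 estimates and 9 of the OMOMYC estimates remained below 0. The 9 without the samples numbered 3 include SLC7A11 and leave out TRIB3. ASNS and SLC7A11 were the members with opposite signs between pairs against EGFP.

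**Figure D3:**
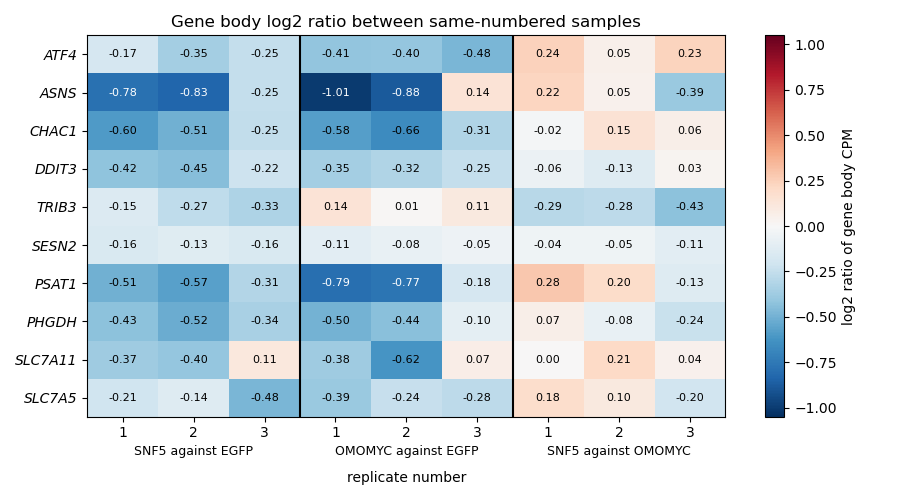
Log2 ratio of gene body CPM between samples of the same replicate number (columns 1 to 3 of each block) for the 10 members (rows), with blue for lower and red for higher in the first-named construct. Against EGFP, pairs 1 and 2 were below 0 for every member except TRIB3 with OMOMYC, and pair 3 was above 0 for TRIB3 and ASNS with OMOMYC and for SLC7A11 with both constructs.

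Promoter-proximal signal, the reads in the fullest 50 bp window near the start, showed no called change at the members. With SNF5, 0 of 10 members were called by edgeR (4.27% of 11241 genes tested, 2.64% higher and 1.63% lower), with 1 at an unadjusted p under 0.05 and 1 called by DESeq2. With OMOMYC, 0 of 10 were called (1.80% of all genes, 1.63% higher and 0.169% lower), with 1 at an unadjusted p under 0.05 and 0 by DESeq2. SNF5 against OMOMYC likewise called 0 of 10 (0.827% of all genes, 0.480% higher and 0.347% lower), with 2 at an unadjusted p under 0.05 and 0 by DESeq2. Over all 11241 genes, 2257, 1740 and 1550 had an unadjusted p under 0.05 in these 3 comparisons, and DESeq2 called 313, 154 and 61. The members thus did not stand out. The median log2 fold change of the members was 0.12 with SNF5 and 0.20 with OMOMYC, beside −0.05 and 0.13 over all genes. No member had groups apart, which 1.43%, 1.06% and 1.08% of all genes tested showed with SNF5, with OMOMYC and between them.

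SLC7A5 was the member nearest to a call. Its promoter-proximal signal was 3.23, 14.1 and 5.64 CPM with EGFP, 4.18, 27.7 and 9.16 CPM with SNF5, and 4.05, 25.5 and 6.55 CPM with OMOMYC. It was higher than EGFP in all 3 pairs with both constructs. The log2 fold change was 0.69 ± 0.21 with SNF5 (edgeR adjusted p = 0.0564, and 0.0366 with DESeq2) and 0.47 ± 0.22 with OMOMYC (edgeR adjusted p = 0.278). ATF4 was at 5.02, 32.9 and 12.6 CPM with EGFP and 5.69, 34.5 and 13.2 CPM with SNF5, a log2 fold change of 0.10 ± 0.21 (edgeR adjusted p = 0.824).

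The promoter-proximal values show how far the numbered samples differ. PHGDH had 28, 1820 and 705 reads in EGFP replicates 1, 2 and 3, and 55, 1707 and 549 reads with SNF5. The samples numbered 1 were the low ones for each construct, as they were for the promoter-proximal totals. For ASNS, with 15 to 55 reads per sample, counting error alone is large.

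The pausing index relates promoter-proximal to gene body density, so it rises when polymerase stays near the start relative to the body. Its change was tested as the interaction of region and construct. With SNF5, 1 of 10 members was called, higher (3.66% of 11171 genes called in either direction, 2.02% higher and 1.64% lower), and with OMOMYC 2 of 10, both higher (2.26% in either direction, 2.18% higher and 0.0806% lower). The estimates were above 0 for 8 members with SNF5 and for all 10 with OMOMYC, with medians of 0.40 and 0.49 on the log2 scale, beside 0.01 and 0.14 over all genes. These counts share the gene body and promoter-proximal reads already described.

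SLC7A5 was called with both constructs. Its pausing index was 23.7, 144.2 and 37.5 with EGFP, 35.4, 310.9 and 84.9 with SNF5, and 38.9, 307.4 and 52.8 with OMOMYC, higher than EGFP in each pair. The log2 change was 0.97 ± 0.22 with SNF5 (edgeR adjusted p = 0.00602), about 1.96-fold, and 0.77 ± 0.22 with OMOMYC (edgeR adjusted p = 0.0451). The SNF5 call was lost without the samples numbered 2 (0.89 ± 0.32, edgeR adjusted p = 0.387), which held the most promoter-proximal reads.

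CHAC1 was called with OMOMYC, with an index of 3.35, 9.70 and 9.04 with EGFP and 8.87, 23.8 and 12.4 with OMOMYC. Its log2 change was 1.02 ± 0.28 (edgeR adjusted p = 0.0390), and 0.64 ± 0.29 with SNF5 (edgeR adjusted p = 0.202), where pair 3 went down. Both OMOMYC calls were lost with DESeq2 (adjusted p = 0.122 for SLC7A5 and 0.163 for CHAC1) and with separate scaling of the regions. Without the term for the replicate number no member was called, and 0 of 10 had an unadjusted p under 0.05 with either construct. Over all genes, 9 with SNF5 and 1 with OMOMYC then had an unadjusted p under 0.05, and 0 were called.

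The index was higher in all 3 pairs with both constructs, without a call, at ATF4, ASNS, DDIT3, PSAT1 and PHGDH. How many of all genes showed this was not counted. With OMOMYC, calls over all genes were mostly higher, 243 against 9 lower, and 127 against 66 with separate scaling of the regions. The log2 change at ATF4 was 0.37 ± 0.21 with SNF5 and 0.37 ± 0.21 with OMOMYC (edgeR adjusted p = 0.351 and 0.405). At ASNS it was 0.75 ± 0.29 and 0.80 ± 0.29 (edgeR adjusted p = 0.138 and 0.142), and at PSAT1 0.64 ± 0.23 and 0.67 ± 0.23 (edgeR adjusted p = 0.0975 and 0.103). At DDIT3 it was 0.41 ± 0.23 and 0.35 ± 0.23 (edgeR adjusted p = 0.327 and 0.487), and at PHGDH 0.34 ± 0.23 and 0.51 ± 0.23 (edgeR adjusted p = 0.437 and 0.259). Between SNF5 and OMOMYC edgeR called 0 of 10 members (1.23% of all genes, 0.125% higher and 1.10% lower, with 0 at an unadjusted p under 0.05, and 0 called by DESeq2). Over all 11171 genes, 1544 had an unadjusted p under 0.05 here, and DESeq2 called 40.

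**Figure D4:**
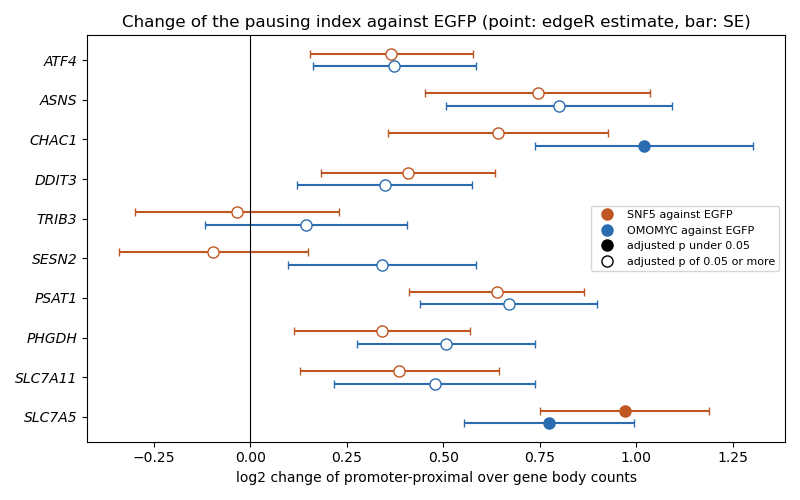
Log2 change of the pausing index against EGFP for the 10 members (horizontal axis), as edgeR estimates with SE bars, for SNF5 (orange) and OMOMYC (blue), with filled points for adjusted p under 0.05. SLC7A5 is filled for both constructs and CHAC1 for OMOMYC, and TRIB3 and SESN2 lie nearest to 0 with SNF5.

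MYC ChIP-seq peaks show which of these genes had MYC near the start in control cells. The lists hold 940 and 5396 peaks for the EGFP samples and 137 and 27 for the SNF5 samples, while the OMOMYC lists hold no real peak. In both EGFP samples, 2 of the 10 members, ATF4 and SLC7A5, had a summit no further than 1 kb from the start, and 4.31% of the 20367 symbols had this. Replicate 2, the longer list, also had a summit at ASNS, CHAC1 and PSAT1, and 23.2% of symbols had a summit in at least 1 EGFP sample. No member had a peak in an SNF5 list, where 0.643% of symbols had a summit in at least 1 sample and 0.0491% in both. The lists give no read counts, so absence from a list is not a measured loss of MYC.

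At SLC7A5 the summits lay 122 and 167 bp upstream of the start (hg19, chr16, positions 87903222 and 87903267), outside the annotated gene, with 5.05-fold and 11.7-fold enrichment and −log10 q of 7.11 and 37.3. An E-box lay 16 and 24 bases from these summits in the GRCh37 sequence, at chr16:87903238-87903243. At ATF4 the summits lay 376 and 377 bp after the start (chr22, positions 39916945 and 39916946), in a non-coding part of an exon, with 5.17-fold and 10.9-fold enrichment. The list of EGFP replicate 1 also held a weaker ATF4 summit of 4.71-fold, 27 bp before the start. No E-box was found within 100 bp of the stronger ATF4 summits, or of the summits at ASNS, CHAC1 and PSAT1. The sequence around the weaker ATF4 summit was not searched directly. The ATF4 E-box shown above begins 82 bases before the RefSeq start in GRCh38, and the weaker summit lay 27 bp before the hg19 start. Both thus fall in the 100 bp before the start, on the same side of it. ASNS, with 7.29-fold enrichment, CHAC1, with 5.20-fold, and PSAT1, with 5.80-fold, had their summits 105, 197 and 89 bp from the start.

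The remaining members had no MYC summit within 1 kb in any sample. In EGFP replicate 2 the nearest was 1043 bp away at PHGDH (3.92-fold) and 1796 bp away at DDIT3 (4.55-fold). TRIB3, SESN2 and SLC7A11 had none within 50 kb. How presence of a MYC summit and a called fall went together depended on the test. By edgeR, SLC7A5 and ASNS had a summit and were not called with OMOMYC. TRIB3 and SESN2 had none nearby and were called lower with SNF5. With DESeq2, SLC7A5 and ASNS were called with OMOMYC (adjusted p = 0.0139 and 0.0136). TRIB3 and SESN2 were then not called with SNF5 (DESeq2 adjusted p = 0.0664 and 0.0739). PHGDH and DDIT3, without a summit within 1 kb, were called lower with both constructs by both tests.

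ATAC-seq peaks, called by the authors in hg38, mark open chromatin at the starts. A summit within 1 kb of a RefSeq start was listed in all 3 EGFP samples at 6 of the 10 members (32.3% of 17182 symbols), in all 3 OMOMYC samples at 6 (28.9%), and in all 3 SNF5 samples at 8 (46.7%). At least 1 sample listed 9 members with EGFP, 9 with OMOMYC and 10 with SNF5, beside 49.8%, 51.9% and 56.9% of symbols. The lists were longer for SNF5, with 22722 to 33596 peaks, than for EGFP, with 9208 to 17817, so more genes of any kind had a peak there. ATF4, ASNS, CHAC1, SESN2 and PSAT1 were listed in all 9 samples.

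At ASNS the summits lay 71 to 117 bp upstream of the start at chr7:97872408. The response element shown above begins 68 bp upstream. Fold enrichment there was 9.76, 13.0 and 10.2 with EGFP, 7.16, 12.1 and 9.72 with OMOMYC, and 10.3, 11.4 and 10.8 with SNF5. The ranges of the 3 constructs overlap. CHAC1 had 4.29-fold, 5.06-fold and 4.98-fold enrichment with EGFP and 8.50-fold, 7.84-fold and 4.75-fold with SNF5, with summits 112 to 224 bp upstream of the start. At ATF4 the summits lay 363 to 432 bp upstream and fold enrichment kept between 4.19 and 5.55 in all 9 samples.

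Some peaks differed in their presence. SLC7A11 was listed in 2 of 3 EGFP samples, at 5.51-fold and 7.13-fold, in 2 of 3 OMOMYC samples, at 8.02-fold and 5.73-fold, and in all 3 SNF5 samples, at 10.3-fold, 11.4-fold and 8.60-fold. TRIB3 had a peak in SNF5 samples 1 and 3 alone, 654 and 778 bp after the start and at 3.98-fold and 4.49-fold, while its gene body signal was lower with SNF5. DDIT3 was missing from EGFP sample 3 and SLC7A5 from OMOMYC sample 3. PHGDH was listed in 2 samples of each construct, with summits from 105 bp before to 899 bp after the start. EGFP sample 3 and OMOMYC sample 1 had the shortest lists, with 9208 and 7260 peaks. The lists themselves carry no read numbers, so these absences were not set against depth here.

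**Figure D5:**
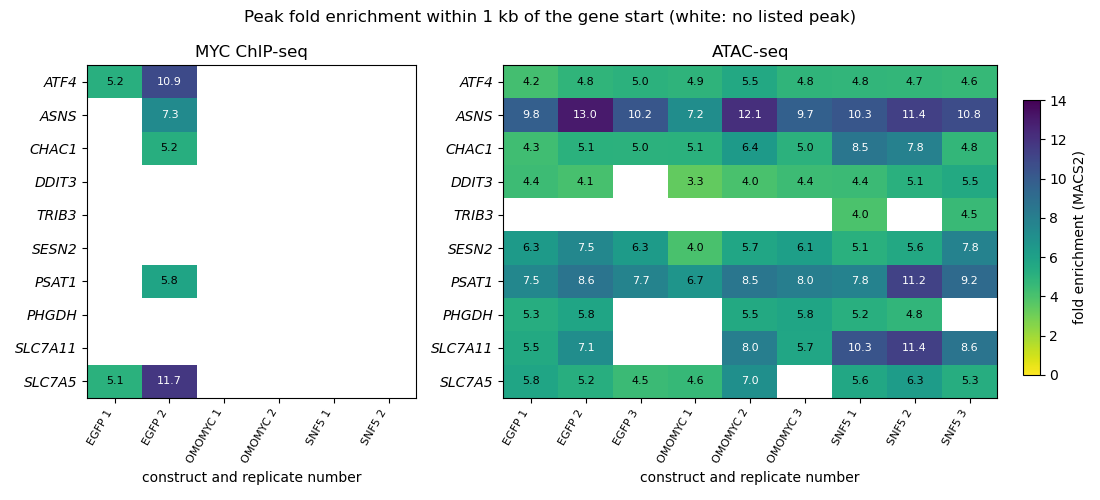
Fold enrichment over the local background, as MACS2 gave it, of the strongest peak with a summit within 1 kb of the start of each member (rows) in each MYC ChIP-seq and ATAC-seq sample (columns), with white for no listed peak. MYC peaks stand in EGFP samples only, at 2 members in replicate 1 and 5 in replicate 2, and ATF4, ASNS, CHAC1, SESN2 and PSAT1 have an ATAC-seq peak in all 9 samples.

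Of 105 other genes of the pathway in 9 lists, 100 had enough gene body reads to test. With SNF5, 15 rose and 26 fell, with a median log2 fold change of −0.10, and with OMOMYC 3 rose and 19 fell, with a median of −0.11. Over all genes tested, 17.6% rose and 16.5% fell with SNF5, so the share of the 100 that was called in either direction lies near the 34.1% of all genes. With OMOMYC, 4.10% of all genes rose and 4.42% fell. Between them, 16 were higher and 2 lower with SNF5 than with OMOMYC, where 11.5% and 7.38% of all genes were. Upstream of ATF4, the eIF2 kinases and the eIF2 phosphatase had 1 gene up and 1 down of 9 with SNF5. EIF2AK4, which encodes the amino acid sensor GCN2, rose by 0.29 ± 0.06 on the log2 scale with SNF5 (edgeR adjusted p = 0.00485). PPP1R15A, the stress-induced phosphatase subunit GADD34, fell with SNF5 (−0.27 ± 0.08, edgeR adjusted p = 0.0240) and with OMOMYC (−0.41 ± 0.08, edgeR adjusted p = 0.0258). PPP1R15B, its constitutive relative, fell with OMOMYC (−0.37 ± 0.06, edgeR adjusted p = 0.0230).

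Subunits of eIF2 and of its exchange factor eIF2B had 0 higher and 2 lower of 8 with SNF5 (17.6% and 16.5% of all genes). With OMOMYC, 0 were higher and 3 lower (4.10% and 4.42% of all genes). The 3 that fell with OMOMYC were those of eIF2 itself, EIF2S1 (−0.27 ± 0.07), EIF2S2 (−0.34 ± 0.08) and EIF2S3 (−0.35 ± 0.07), with edgeR adjusted p of 0.0448, 0.0368 and 0.0269. With SNF5, EIF2S2 (−0.26 ± 0.08) and EIF2B4 (−0.48 ± 0.10) fell, with edgeR adjusted p of 0.0310 and 0.00833. Of the 8 bZIP partners and relatives of ATF4, JDP2 (0.29 ± 0.06, edgeR adjusted p = 0.00607) and ATF6 (0.27 ± 0.07, edgeR adjusted p = 0.0129) rose with SNF5, and none of the 8 was called with OMOMYC.

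Serine, glycine and folate enzymes had 0 higher and 4 lower of 7 with SNF5 (16.5% of all genes were lower) and 0 higher and 2 lower with OMOMYC (4.42%). ALDH1L2, a folate enzyme, was above 0 without a call, at 0.18 with SNF5 and 0.33 with OMOMYC on the log2 scale (edgeR adjusted p = 0.621 and 0.428). The mitochondrial enzymes SHMT2 and MTHFD2 fell with both constructs. SHMT2 had 23.8, 23.5 and 27.2 CPM with EGFP and 17.9, 14.2 and 19.8 CPM with SNF5, a change of −0.53 ± 0.11 (edgeR adjusted p = 0.00789), and −0.45 ± 0.11 with OMOMYC (edgeR adjusted p = 0.0454). MTHFD2 changed by −0.44 ± 0.09 with SNF5 (edgeR adjusted p = 0.00773) and −0.42 ± 0.09 with OMOMYC (edgeR adjusted p = 0.0335), and its pausing index rose with OMOMYC by 0.89 ± 0.21 (edgeR adjusted p = 0.0139). Among the 93 pathway genes tested for pausing, 2 were called higher and 0 lower with OMOMYC, near the 2.18% and 0.0806% of all genes. MTHFD1, the cytoplasmic enzyme, fell with SNF5 by 0.22 ± 0.07 on the log2 scale (edgeR adjusted p = 0.0467).

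Other amino acid synthesis was mixed, with 2 higher and 2 lower of 10 with SNF5, near the 17.6% and 16.5% of all genes. With OMOMYC, 0 were higher and 1 lower (4.10% and 4.42% of all genes). PYCR1, of proline synthesis, fell with SNF5 (−0.68 ± 0.12, edgeR adjusted p = 0.00308), and CBS, of transsulfuration, fell with OMOMYC (−0.59 ± 0.10, edgeR adjusted p = 0.0216) and with SNF5 (−0.32 ± 0.10, edgeR adjusted p = 0.0326). CTH, the next enzyme of transsulfuration, rose with SNF5 in the gene body (0.32 ± 0.09, edgeR adjusted p = 0.0208) and near the promoter (1.03 ± 0.23, edgeR adjusted p = 0.00690). Near promoters, 2 of 93 pathway genes tested were called higher and 0 lower with SNF5, beside 2.64% and 1.63% of all genes. BCAT1, the branched-chain aminotransferase, rose with SNF5 (1.66 ± 0.23, edgeR adjusted p = 0.00112). It had 6.1, 6.7 and 1.4 CPM with EGFP and 23.8, 24.0 and 2.6 CPM with SNF5, so the rise was largest in pairs 1 and 2.

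Transporter genes gave 1 higher and 3 lower of 10 with SNF5, near the 34.1% of all genes called, and 0 higher and 4 lower with OMOMYC, where 4.42% of all genes were lower. SLC3A2 encodes the heavy chain that pairs with the products of SLC7A5 and SLC7A11, and it fell with OMOMYC (−0.29 ± 0.06, edgeR adjusted p = 0.0258) and with SNF5 (−0.27 ± 0.06, edgeR adjusted p = 0.00618). The glycine transporter SLC6A9 fell with both constructs (−0.54 ± 0.08 with SNF5 and −0.55 ± 0.08 with OMOMYC, edgeR adjusted p = 0.00188 and 0.0168), as did the glutamine transporter SLC1A5 (−0.31 ± 0.07 for each, edgeR adjusted p = 0.0123 and 0.0399). SLC1A4 rose with SNF5 (0.33 ± 0.10, edgeR adjusted p = 0.0364).

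Of 24 other targets of ATF4 and CHOP tested, 4 rose and 4 fell with SNF5, near the 17.6% and 16.5% of all genes. With OMOMYC, 2 rose and 5 fell, where 4.10% and 4.42% of all genes did. The median log2 fold change of the list was −0.05 with SNF5 and −0.17 with OMOMYC, beside −0.03 and −0.0003 over all genes. Called genes of the list went in both directions with each construct. VLDLR, a lipoprotein receptor, rose with SNF5 (1.53 ± 0.25, edgeR adjusted p = 0.00239), as did SESN3, a paralog of SESN2 (1.36 ± 0.33, edgeR adjusted p = 0.0128). HMOX1, heme oxygenase, fell with SNF5 (−0.77 ± 0.20, edgeR adjusted p = 0.0189). With OMOMYC, the secreted stress cytokine GDF15 fell (−0.57 ± 0.09, edgeR adjusted p = 0.0194), with 177.6, 177.1 and 204.3 CPM with EGFP and 110.0, 103.3 and 170.3 CPM with OMOMYC. TRIB1, a relative of TRIB3 (−0.63 ± 0.14, edgeR adjusted p = 0.0349), and VEGFA, the angiogenic factor (−0.39 ± 0.10, edgeR adjusted p = 0.0432), fell too.

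The genes whose gene body signal most resembled that of ATF4 over the 9 samples, after the mean of each replicate number was removed, were METTL2B (r = 0.99), SLC9B1, MRPS26, LRPAP1 and LOC100128714 (r = 0.98 for each), among 12161 genes. None of these belongs to a list used here. The points share libraries and scaling, so r is a description. The members had r with ATF4 of 0.86 at CHAC1, 0.84 at PSAT1, 0.82 at DDIT3, 0.78 at SLC7A5, 0.74 at PHGDH, 0.67 at ASNS, 0.64 at SLC7A11, 0.59 at SESN2 and −0.14 at TRIB3. CHAC1, the highest of them, ranked 318 of the 12161 genes.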

How the data were processed

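The authors trimmed PRO-seq reads with Cutadapt, aligned them to hg19 with Bowtie2 and counted them with NRSA. The deposited table holds raw read counts of a promoter-proximal window and of the gene body (1 kb after the start to the gene end), and a gene body density signal, which was not tested. The deposited MYC ChIP-seq (hg19) and ATAC-seq (hg38) lists give, per peak called by the authors with MACS2 in each sample, a fold ratio over local background, −log10 p and −log10 q, without read numbers.

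The counts entered the quasi-likelihood test of edgeR 4.0.16 (run in R 4.3.3) over all genes with a mean of at least 10 counts, 1 transcript per symbol, all 9 samples in a fit, the replicate number as a block, and offsets of gene body totals times RLE factors. Adjusted p-values are Benjamini-Hochberg values over all genes tested. Same-numbered samples deviated together (r of 0.836 to 0.927 in gene bodies and 0.693 to 0.936 near promoters). DESeq2 1.42.0, TMM, other filters and left-out samples were alternatives. Scripts were tested on simulated counts. A pathway gene was named if it was among the 3 largest gene body calls of its list with SNF5 or OMOMYC. ALDH1L2, which was not called, was named as well. The 5 genes most like ATF4 were taken by Pearson's r among genes with a mean of at least 100 counts. Members, lists and tests were chosen with earlier results of these data known.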

Additional observations from a re-analysis of the deposited data

How the results depend on the processing

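Of the members' single estimates none reversed a call under any alternative run. Without the replicate block, the genes called in the gene body fell from 5131 to 225 with SNF5, from 1284 to 1 with OMOMYC and from 2848 to 75 between them, with 0, 0 and 0 members, and near promoters and for the pausing index 0 genes and 0 members were called in every comparison. Because the numbers pair the samples, the spread between pairs then enters the error. In the gene body, OMOMYC gave 2097 calls with DESeq2 and 1939 with only the 6 samples compared, and SNF5 then gave 5 members. Leaving out a replicate number gave 1485 to 8430 calls with SNF5 (0 to 9 members), 2 to 6793 with OMOMYC (0 to 8 members) and 731 to 6274 between them (0 to 3 members), the lowest without number 1 or 2 and the highest without number 3.

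Near promoters, SNF5 against EGFP gave 990 calls with TMM, 993 with RLE factors from promoter-proximal counts, 313 with DESeq2, 790 with no filter and 319 at a mean of at least 50 counts, and SLC7A5 was the 1 member called under the first 3. OMOMYC gave 305 with no filter, and SNF5 against OMOMYC gave 61 with DESeq2, 258 with no filter, 35 at a mean of at least 50 and 227 with only the 6 samples. Leaving out a number gave 55 to 969 (0 to 1 members), 4 to 879 (0 to 1 members) and 26 to 476 in the 3 comparisons. For the pausing index, separate RLE factors gave 820 calls with SNF5 (2 members) and 0 members with OMOMYC, and DESeq2 gave 101, 68 and 40, with 0 members for OMOMYC. Leaving out a number gave 9 to 617 (0 to 2 members), 0 to 955 (0 to 5 members) and 9 to 471. Other causes were not tested.

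MYC peaks at member starts numbered 1 at −log10 q of at least 5, and 2 to 5 when an EGFP sample was left out. ATAC-seq counts moved by no more than 1.5 times under the alternatives run, including the use of any GENCODE start, which was chosen after seeing the data. Promoter-proximal reads in the samples numbered 1 limit the pausing results.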

Other observations

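The ATF6 and XBP1 arms raise chaperones and degradation factors of the endoplasmic reticulum apart from ATF4. With SNF5, 3 of their 16 tested genes were higher and 7 lower in the gene body (17.6% and 16.5% of all genes). With OMOMYC, 1 was higher and 1 lower (4.10% and 4.42% of all genes). In either direction, 34.1% of all genes were called with SNF5 and 8.53% with OMOMYC. The OMOMYC share is near that of all genes. The chaperone gene HSPA5, which encodes BiP, had 70.7, 65.9 and 77.8 CPM with EGFP and 54.9, 43.5 and 68.3 CPM with OMOMYC, a log2 fold change of −0.38 ± 0.08 (edgeR adjusted p = 0.0275). Its pausing index rose with OMOMYC by 1.00 ± 0.22 (edgeR adjusted p = 0.0101). Among the 93 pathway genes tested, 2 had such a call, HSPA5 and MTHFD2, near the 2.18% of all genes called higher. With SNF5, the chaperone cofactor SDF2L1 (−0.61 ± 0.18, edgeR adjusted p = 0.0287) and CRELD2 (−0.47 ± 0.10, edgeR adjusted p = 0.00763) fell, and EDEM1, of protein degradation, rose (0.54 ± 0.06, edgeR adjusted p = 0.000320). EDEM1 had 64.7, 66.1 and 64.6 CPM with EGFP and 100.7, 95.1 and 87.7 CPM with SNF5, and the groups did not overlap. DNAJC3, an inhibitor of eIF2 kinases, rose with OMOMYC (0.27 ± 0.07, edgeR adjusted p = 0.0488).

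Among 8 cystine and glutathione genes, 2 rose and 3 fell with SNF5, and 0 rose and 1 fell with OMOMYC, beside the same shares of all genes. GCLC, the catalytic subunit of the first enzyme of glutathione synthesis, rose with SNF5 (0.41 ± 0.06, edgeR adjusted p = 0.00150), with 48.1, 50.8 and 40.0 CPM with EGFP and 67.1, 69.6 and 49.3 CPM with SNF5. SLC3A1, which pairs with another cystine transporter, rose by 1.73 ± 0.28 (edgeR adjusted p = 0.00221) from a low level of 0.5 to 1.0 CPM. GGCT fell with SNF5 (−0.54 ± 0.10, edgeR adjusted p = 0.00419) and with OMOMYC (−0.45 ± 0.10, edgeR adjusted p = 0.0328).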
